A study of Mus musculus with 12 samples.

Results

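Genes of fatty acid handling were followed in cardiac macrophages (Mφ), namely Fabp4, Fabp5, Ffar4, Lpl, Cd36, Plin2, Pparg, Acsl1 and Mgll. These 9 genes, of 24445 gene symbols in the count files, were selected on their role in fatty acid binding, sensing and storage and on their CPM levels in the groups, which were already known. Their differences between groups are therefore given as descriptions, with no p and with nothing read from whether a member passed a threshold.

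RNA was sequenced from Mφ of 12 adult male C57BL6/J mice, with 4 mice in each group and 1 library per mouse. Control (Ct) mice carried a pump filled with saline, for a time not given per mouse in the sources used here. In ECH mice (early concentric hypertrophy) the pump released the β-adrenergic agonist isoproterenol for 14 days at 30 mg/kg/day, and in HF mice (heart failure) it released the same dose for 28 days. Leukocytes of each heart were enriched with CD45 beads and the CD11b+ cells positive for CD14 and CD64 were then sorted, so that Mφ lacking CD14 or CD64 were not sampled. Since each library pools many cells, fewer cells of a type and less RNA per cell cannot be told apart.

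Library totals lay between 88466559 and 111180291 counts, with 13600 (HF 1) to 15940 genes detected. The numbering of libraries in the labels points to 2 sets, and neither the labels nor the study's methods state them. Set A held Ct 1 to 4 with ECH 1 and 2, and set B held HF 1 to 4 with ECH 3 and 4. ECH could therefore be compared with Ct within set A, and HF with ECH within set B. HF and Ct shared no set, so that a set-adjusted difference between them came only from a model with the set as a covariate, which rests on the difference between ECH 1 and 2 and ECH 3 and 4. Label codes also share their first part within Ct 1 and 2, Ct 3 and 4, ECH 3 and 4, and HF 1 and 2, and the labels do not say what that part means. The summed level of 10 Mφ markers was 30841 to 43054 CPM (counts scaled to library size by the TMM method) over the 12 libraries. None of these 10 markers was called different between any groups by the edgeR quasi-likelihood test used throughout, nor by DESeq2, and 1, 3 and 0 of them had an unadjusted p under 0.05 in ECH against Ct, HF against Ct and HF against ECH. Of the marker lists of 9 other cell types, the B cell list alone held an edgeR call, with 1 of its 5 genes lower in each isoproterenol group than in Ct, where DESeq2 called 4 (ECH) and 5 (HF). Its genes summed to 99.6 to 460 CPM in Ct, 35.99 to 81.7 in ECH and 50.6 to 77.4 in HF, without overlap with Ct, and their part in the results was not tested. DESeq2 further called 1 T and NK cell, 2 dendritic cell, 1 monocyte and 1 neutrophil marker in ECH against Ct and 2 cardiomyocyte and 1 dendritic cell marker in HF against Ct.

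Long-chain fatty acids reach a Mφ in lipoproteins, from which lipoprotein lipase frees them, or as free acids that the scavenger receptor CD36 takes up. Inside the cell they are bound by small carrier proteins (FABP4 and FABP5), activated by acyl-CoA synthetases such as ACSL1, and stored as triglyceride in lipid droplets coated by perilipin 2. They also act as signals, at the cell surface through the receptor FFAR4 and in the nucleus through PPARγ.

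Fabp5 and Ffar4 were the members that stood higher in both isoproterenol groups than in Ct. Fabp5 was 6.90-fold (ECH) and 7.78-fold (HF) its Ct level, and Ffar4, without a single count in Ct, was present in every library of ECH and HF. Each of the other 7 members overlapped between groups in all 3 comparisons. Plin2 was 2.14-fold its Ct level in ECH and 1.21-fold in HF, with most of the ECH excess in ECH 3 and 4. Fabp4 and Mgll split by pair of mice in ECH, and their HF levels were 0.573 and 0.569 times those in Ct. The HF differences from Ct depended on the inferred set. With the set as a covariate, the log2 fold change of HF over Ct was −0.94 ± 0.35 for Plin2 (0.27 ± 0.31 without it), −2.26 ± 0.41 for Fabp4 (−0.80 ± 0.36) and −2.57 ± 0.79 for Mgll (−0.81 ± 0.54). It was 0.98 ± 0.68 for Lpl (0.03 ± 0.42), 0.95 ± 0.54 for Pparg (0.39 ± 0.32) and 0.23 ± 0.31 for Cd36 (−0.13 ± 0.19). Fabp5, at 2.73 ± 0.48, and Acsl1, at −0.04 ± 0.47, moved less.

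Calls required an FDR below 0.05 (Benjamini-Hochberg over all 14608 genes tested) together with a change of at least 2-fold. Of the 9 members, all of which passed the filter on low counts, 2 were called in ECH against Ct and the same 2, Fabp5 and Ffar4, in HF against Ct, where 0.356% and 0.377% of all genes tested were called. The same 2 members had all libraries above all Ct libraries, as had 4.33% of all genes in ECH and 4.59% in HF, and no member had all HF above all ECH libraries, as had 3.36% of all genes. None was called in HF against ECH, nor was any gene there (0.0% of all genes), where 1165 genes had an unadjusted p under 0.05 and DESeq2 called 47. The median log2 fold change of the members was 0.10 (ECH − Ct), 0.03 (HF − Ct) and 0.09 (HF − ECH), against 0.01, −0.01 and −0.02 for all genes tested. Both comparisons with Ct share the same 4 control libraries. Since the members were picked with these differences in view, nothing is read from their counts.

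**Figure D1:**
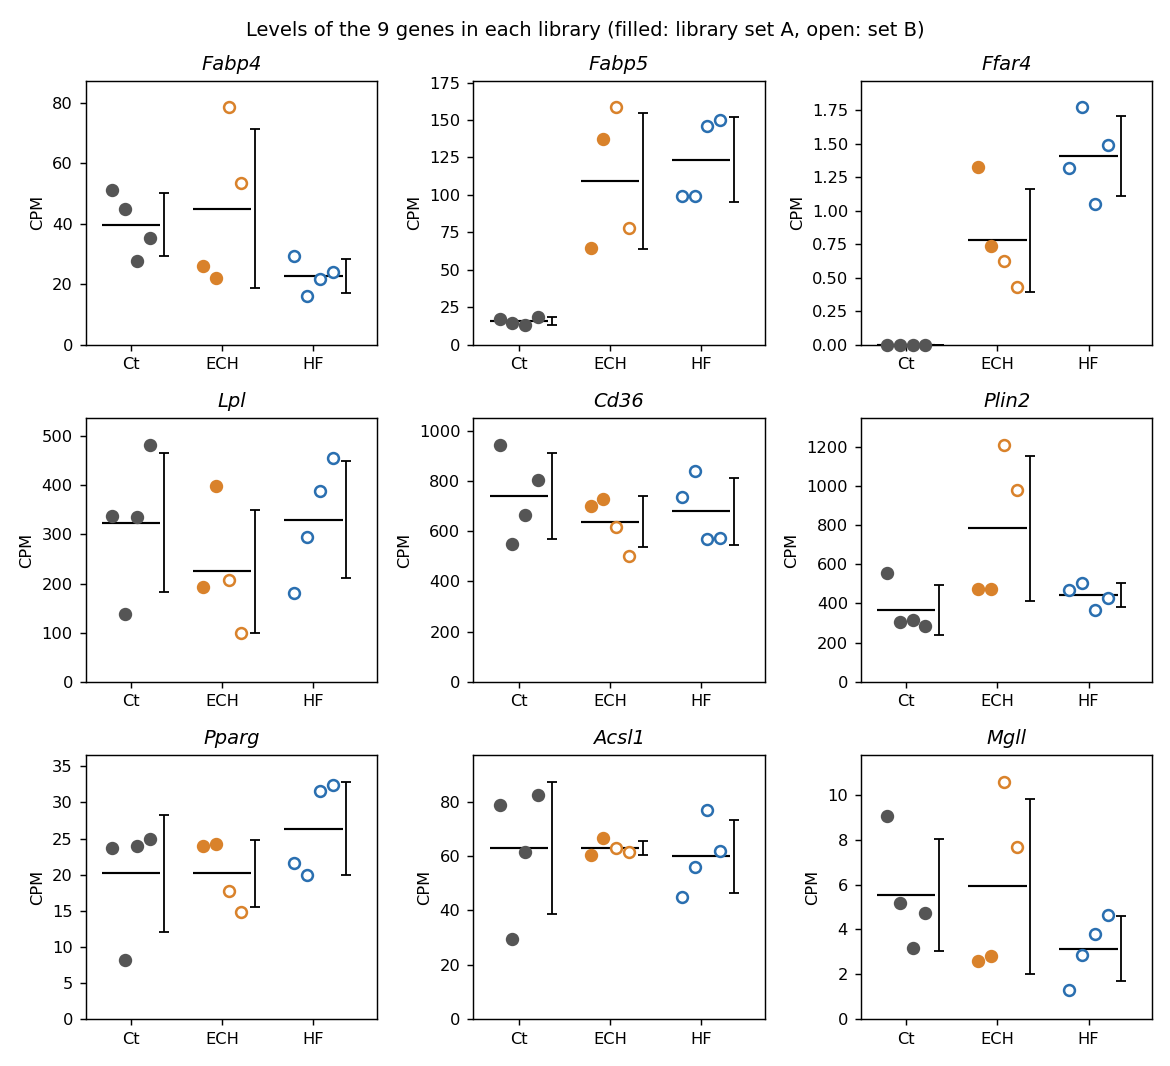
Level of each of the 9 genes in CPM (vertical axis, from 0) in the 4 libraries of each group, with filled points for library set A, open points for set B, a horizontal line at the group mean and a bar of 1 SD. Fabp5 and Ffar4 show no overlap between Ct and either isoproterenol group, while Fabp4, Plin2 and Mgll are higher in the open than in the filled ECH points.

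Fabp4 and Fabp5 encode sister carrier proteins, and their genes lie near each other on chromosome 3, Fabp4 at chr3:10204088-10208576 on the minus strand and Fabp5 at chr3:10012548-10016607 on the plus strand (GRCm38). Because the levels of these carriers took different courses, the first 300 bases of their coding sequences are shown with that of Fabp7, the brain-type carrier that was also called below. They come from the GENCODE M21 transcripts of GRCm38, 5′ to 3′, with capitals on the longest stretch that is identical in a second of the 3 sequences.
Fabp5: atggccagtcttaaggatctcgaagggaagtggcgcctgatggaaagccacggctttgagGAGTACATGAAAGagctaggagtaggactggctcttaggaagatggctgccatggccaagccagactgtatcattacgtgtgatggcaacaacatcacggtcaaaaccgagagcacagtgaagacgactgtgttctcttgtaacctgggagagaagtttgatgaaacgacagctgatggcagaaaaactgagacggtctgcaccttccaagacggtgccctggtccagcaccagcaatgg
Fabp4: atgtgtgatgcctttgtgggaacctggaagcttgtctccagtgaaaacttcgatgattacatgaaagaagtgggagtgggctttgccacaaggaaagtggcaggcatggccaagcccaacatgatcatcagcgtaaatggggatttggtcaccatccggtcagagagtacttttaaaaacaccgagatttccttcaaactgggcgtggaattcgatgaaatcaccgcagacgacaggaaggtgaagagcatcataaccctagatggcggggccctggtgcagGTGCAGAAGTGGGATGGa
Fabp7: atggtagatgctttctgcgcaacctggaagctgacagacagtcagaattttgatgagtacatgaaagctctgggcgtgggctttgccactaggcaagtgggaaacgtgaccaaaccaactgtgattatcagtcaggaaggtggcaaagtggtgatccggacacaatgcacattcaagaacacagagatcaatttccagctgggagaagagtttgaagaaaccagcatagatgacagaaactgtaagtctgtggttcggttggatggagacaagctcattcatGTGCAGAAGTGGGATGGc
The coding sequences of Fabp4 (399 bases) and Fabp5 (408 bases) were identical at 61.4% of aligned positions, and the longest run they share, 12 bases, was far shorter than the 75-base reads. Fabp4 and Fabp7 were 62.3% identical with a longest run of 17 bases, and Fabp5 and Fabp7 55.9% with 13 bases. No error-free read of one of these 3 carriers could hence match another over its whole length. Fabp5 has other near-copies, since 110 of its 913 transcript words of 75 bases recur in the predicted genes Gm14328 and Gm6166, so that a share of its counts depends on how such reads were assigned. No transcript word of Fabp4 or Fabp7 recurred in another gene.

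Fabp5, the epidermal-type carrier found in many Mφ, had 17.1, 14.7, 13.1 and 18.6 CPM in Ct 1 to 4. It had 64.5, 137, 158 and 78.1 CPM in ECH 1 to 4 and 98.9, 99.5, 146 and 150.0 CPM in HF 1 to 4. The lowest isoproterenol library thus lay above the highest Ct library by far more than the Ct spread. The log2 fold change was 2.79 ± 0.28 (SE) in ECH and 2.96 ± 0.29 in HF, and HF and ECH differed by 0.17 ± 0.26. Against Ct libraries of the same set, ECH 1 and 2 gave 2.66 ± 0.30, so the difference was nearly as large without the other set.

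Fabp4, the adipocyte-type carrier that Mφ and capillary endothelium also express, had 51.1, 45.0, 27.6 and 35.2 CPM in Ct. It had 26.1, 21.9, 78.5 and 53.6 CPM in ECH and 29.4, 15.9, 21.8 and 23.9 CPM in HF. ECH 1 and 2 were below every Ct library and ECH 3 and 4 above every one, so that the ECH mean of 45.0 ± 26.4 CPM (SD, n = 4) describes neither pair. HF lay below Ct except that HF 1 exceeded the lowest Ct library. The log2 fold changes were 0.18 ± 0.36 (ECH − Ct), −0.80 ± 0.36 (HF − Ct) and −0.98 ± 0.36 (HF − ECH). Within library sets they were −0.73 ± 0.29 for ECH 1 and 2 against Ct and −1.53 ± 0.25 for HF against ECH 3 and 4. In ECH against Ct the sign therefore turned with the libraries used. The carriers Fabp4 and Fabp5 changed places, with Fabp4 the higher per length of transcript in Ct (44.3 against 16.1 CPM per kb) and Fabp5 in HF (125 against 25.4 CPM per kb).

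Endothelial RNA was considered beside Fabp4, since that gene and Cd36 are abundant in capillaries. The 12 endothelial markers summed to 18.4 to 41.0 CPM in Ct, 22.8, 37.8, 61.6 and 39.8 CPM in ECH 1 to 4, and 17.6 to 37.7 CPM in HF. None of the 12 was at 0 in all libraries and none was called in any comparison by edgeR or DESeq2, with 0, 1 and 0 of them at an unadjusted p under 0.05. ECH 3 was highest both in this sum and in Fabp4, while ECH 2 and ECH 4 had nearly equal sums and Fabp4 levels of 21.9 and 53.6 CPM. Gpihbp1, 1 of the 12, which anchors lipoprotein lipase on capillary cells, had 1.32 and 1.93 CPM in ECH 1 and 2 and 13.5 and 8.05 CPM in ECH 3 and 4. The mean of ECH 3 and 4 was above that of ECH 1 and 2 for 9 of the 12, and for 4 of them (Gpihbp1, Pecam1, Esam and Flt1) both libraries were above both. It was lower for Cdh5, Vwf and Egfl7, of which Cdh5 had 0.594 and 0.650 against 0.538 and 0.259 CPM and Vwf 3.79 and 6.74 against 4.604 and 3.59 CPM. Fat cells were looked for as well, and Adipoq, Cidec, Lep and Adrb3, 4 of the 10 adipocyte markers, had 0 counts in all 12 libraries. The rest of that list summed to 10.1 to 25.0 CPM and was mostly Lipe, a lipase that Mφ also express. The part of endothelial RNA in the Fabp4 levels was not tested.

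Among receptors, Ffar4 encodes a G protein-coupled receptor for long-chain fatty acids (also called GPR120) and lies at chr19:38097071-38114263 on the plus strand. It had 0 counts in each of the 4 Ct libraries, which allows up to 0.0349 CPM in the shallowest of them. In ECH 1 to 4 it had 134, 76, 70 and 50 counts, or 1.33, 0.737, 0.628 and 0.432 CPM. In HF 1 to 4 it had 138, 192, 113 and 167 counts, or 1.32, 1.77, 1.05 and 1.49 CPM. The ECH mean was at least 22.4-fold and the HF mean at least 40.4-fold higher than the Ct limit of 3 counts in a library, and the lowest single libraries gave at least 12.4-fold and 30.2-fold. HF exceeded ECH by 0.85 ± 0.74 on the log2 scale, but ECH 1 lay within the HF range, so the groups overlapped. Against ECH 3 and 4, which both lay below every HF library, the difference was 1.41 ± 0.76. Even so the transcript stayed rare, at 0.557 CPM per kb in ECH and 1.01 CPM per kb in HF, the lowest member in ECH and next to the lowest in HF.

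PPARγ, the nuclear receptor that many of these genes answer to in adipocytes, was measured through Pparg (chr6:115360951-115490399, plus strand). Pparg had 23.6, 8.11, 23.99 and 25.0 CPM in Ct, 23.9, 24.2, 17.7 and 14.9 CPM in ECH, and 21.6, 20.0, 31.6 and 32.4 CPM in HF. The 3 groups overlapped, and 3 of the 4 Ct libraries lay between 23.6 and 25.0 CPM. HF was higher than Ct by 0.39 ± 0.32 on the log2 scale and by 0.12 ± 0.22 without Ct 2. It was higher than ECH by 0.39 ± 0.32, and by 0.70 ± 0.26 against ECH 3 and 4, which both lay below every HF library. ECH and Ct means were alike at 20.2 ± 4.63 and 20.2 ± 8.07 CPM (SD, n = 4), without Ct 2 the difference was −0.26 ± 0.22, and ECH 1 and 2 against Ct gave 0.24 ± 0.43.

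Lipoprotein lipase (Lpl, chr8:68880491-68907448, plus strand) and CD36 (Cd36, chr5:17781690-17888801, minus strand) bring fatty acids to the cell. Lpl had 338, 138, 336 and 483 CPM in Ct, 194, 399, 208 and 99.0 CPM in ECH, and 181, 295, 389 and 456 CPM in HF. Libraries of every group covered most of this range, with log2 fold changes of −0.53 ± 0.42 (ECH − Ct), 0.03 ± 0.42 (HF − Ct) and 0.55 ± 0.42 (HF − ECH). Within sets, ECH 1 and 2 gave −0.14 ± 0.47 against Ct, and HF gave 1.11 ± 0.42 against ECH 3 and 4. A repeat gives 69 of 4041 Lpl transcript words of 75 bases in other genes, which leaves some of its reads ambiguous. Cd36 was the steadiest of the abundant members, at 740 ± 171 (Ct), 637 ± 102 (ECH) and 679 ± 132 CPM (HF; SD, n = 4 each). Its libraries ranged from 502 to 944 CPM in all. Over all 12 libraries without a covariate, no comparison moved it by more than 0.22 on the log2 scale (ECH − Ct, −0.22 ± 0.19). Within sets, ECH 1 and 2 gave −0.06 ± 0.24 against Ct, and HF gave 0.28 ± 0.19 against ECH 3 and 4.

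Acsl1 (chr8:46471037-46536051, plus strand), which couples fatty acids to coenzyme A, had nearly the same mean in the 3 groups. Its levels were 78.9, 29.3, 61.4 and 82.7 CPM in Ct, 60.6, 66.8, 63.1 and 61.5 CPM in ECH, and 44.8, 56.1, 77.0 and 62.0 CPM in HF. The ECH libraries lay closest together (63.0 ± 2.73 CPM) and the Ct libraries widest apart (63.1 ± 24.4 CPM). The log2 difference from Ct was −0.0023 ± 0.26 in ECH and −0.07 ± 0.26 in HF.

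Ct 2 had the lowest level of its group for Lpl, Cd36, Pparg and Acsl1. It also had the fewest detected genes of its group (14489) and the largest summed levels in Ct of B cell (460 CPM), neutrophil (1583 CPM) and cardiomyocyte markers (344 CPM). Without Ct 2 the log2 fold change of ECH over Ct was −0.78 ± 0.40 for Lpl, −0.33 ± 0.18 for Cd36 and −0.24 ± 0.17 for Acsl1. The part of other cells in the Ct 2 values was not tested.

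Perilipin 2 (Plin2, chr4:86648386-86670060, minus strand) coats lipid droplets in Mφ and most other cells. Plin2 had 556, 304, 317 and 285 CPM in Ct, 475, 472, 1211 and 977 CPM in ECH, and 468, 506, 364 and 426 CPM in HF. ECH 3 and 4 stood alone, above all other libraries, whereas ECH 1 and 2 lay within the range of the other groups and below Ct 1. The log2 fold change was 1.10 ± 0.31 (ECH − Ct), 0.27 ± 0.31 (HF − Ct) and −0.83 ± 0.31 (HF − ECH). Among libraries of the same set it was 0.37 ± 0.29 for ECH 1 and 2 against Ct and −1.31 ± 0.15 for HF against ECH 3 and 4. Without Ct 1, the highest of its group, the ECH excess over Ct was 1.38 ± 0.31. Of the 1814 Plin2 transcript words of 75 bases, 29 recur in the predicted gene Gm12551.

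Monoacylglycerol lipase (Mgll, chr6:88724412-88828360, plus strand) splits the last fatty acid from stored triglyceride. Its level was 9.05, 5.18, 3.17 and 4.73 CPM in Ct, 2.60, 2.82, 10.6 and 7.68 CPM in ECH, and 1.29, 2.87, 3.78 and 4.64 CPM in HF. As for Fabp4, ECH 1 and 2 were below every Ct library, and ECH 3 and 4 were high. The log2 fold changes were 0.10 ± 0.54 (ECH − Ct), −0.81 ± 0.54 (HF − Ct) and −0.91 ± 0.55 (HF − ECH), none beyond 2 SE. Within sets, ECH 1 and 2 gave −1.04 ± 0.57 against Ct, and HF gave −1.54 ± 0.51 against ECH 3 and 4.

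**Figure D2:**
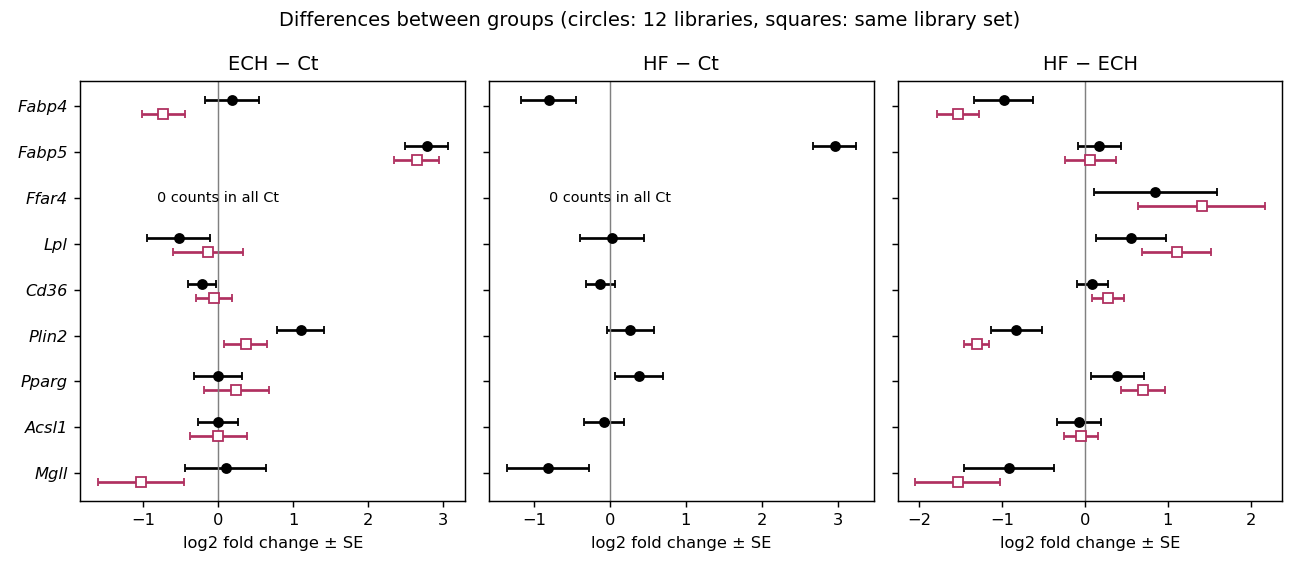
Log2 fold change with its SE for each member in the 3 comparisons, from all 12 libraries (black circles) and from libraries of the same set only (red squares, ECH 1 and 2 against Ct and HF against ECH 3 and 4; none exists for HF against Ct). Fabp5 keeps its size in both fits, whereas Fabp4 and Mgll change sign between them in ECH against Ct.

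ECH 3 and 4 differed from ECH 1 and 2 in several members at once. The mean of ECH 3 and 4 was 3.37 times that of ECH 1 and 2 for Mgll, 2.75 times for Fabp4 and 2.31 times for Plin2. It was 0.514 times for Ffar4, 0.518 times for Lpl and 0.677 times for Pparg, and Acsl1 stood at 0.978 times. Cardiomyocyte markers summed to 132 and 118 CPM in ECH 1 and 2 and to 211 and 224 CPM in ECH 3 and 4, against 135 to 344 CPM in Ct. The 10 Mφ markers summed to 43054 and 39369 CPM in ECH 1 and 2 and to 32906 and 31745 CPM in ECH 3 and 4. Most of that gap was lysozyme (Lyz2), at 21130 and 18990 against 13154 and 12791 CPM. The mean of ECH 3 and 4 was the lower for 8 of the 10 and the higher for Itgam and Mrc1. The part of these markers in the split was not tested. These pairs also differ in inferred library set, which cannot be told apart from a difference between the mice.

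Per length of the principal transcript, the abundant members were Cd36 (218 ± 50.4 CPM per kb) and Plin2 (194 ± 67.6) in Ct, whose libraries overlapped. Lpl (78.7 CPM per kb) and Fabp4 (44.3) followed and also overlapped. Acsl1 (16.2), Fabp5 (16.1) and Pparg (11.4) formed a lower tier in which each neighbour overlapped with the next, above Mgll (1.43) and Ffar4 (0). In ECH the order began with Plin2 (415 CPM per kb), Cd36 (188), Fabp5 (111), Lpl (54.6) and Fabp4 (50.3), and in HF with Plin2 (234), Cd36 (200), Fabp5 (125), Lpl (80.2) and Fabp4 (25.4). Plin2 and Cd36 libraries were apart in ECH and overlapped in HF. Fabp5 thus moved from the sixth place (the seventh with all annotated exons as length) to the third, and its libraries overlapped with those of Lpl in both isoproterenol groups.

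**Figure D3:**
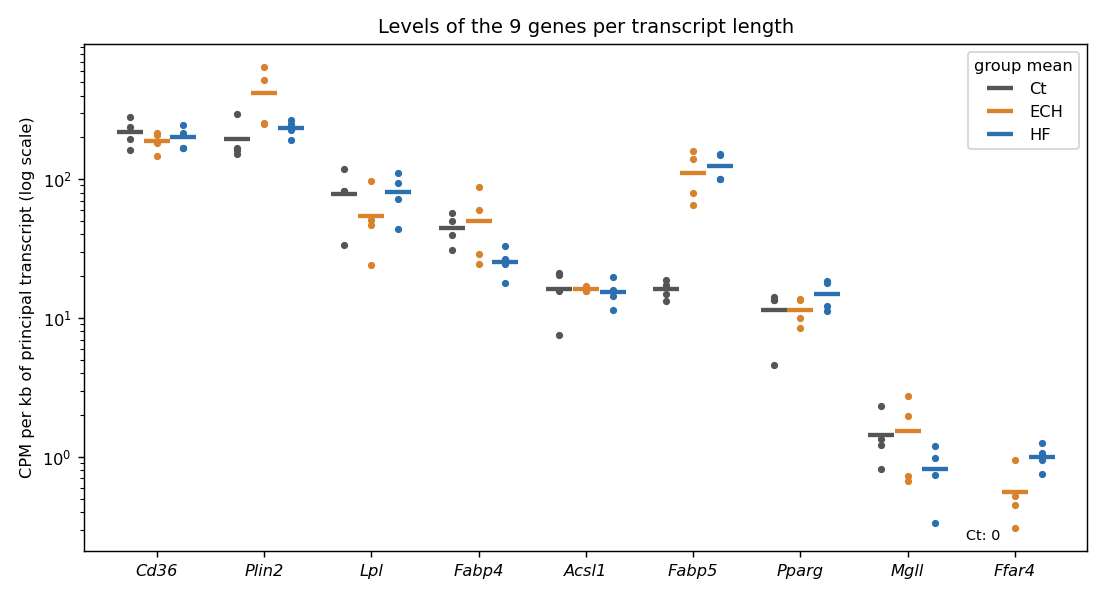
Level per kb of principal transcript (log scale, CPM per kb) of the 9 genes, ordered by their Ct mean, with 1 point per library and a bar at each group mean. Ffar4 was at 0 in Ct and has no Ct point there; between Ct and HF, Fabp5 goes from 16.1 to 125 CPM per kb and Fabp4 from 44.3 to 25.4.

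Over the 12 libraries, the log2 CPM values of some members went together, as a description that carries the differences between groups with it. Pearson's r was 0.941 for Fabp5 and Ffar4, both low in all Ct libraries, 0.775 for Pparg and Acsl1, 0.759 for Lpl and Pparg and 0.747 for Fabp4 and Mgll. Fabp4 and Fabp5 gave −0.250. The libraries share depth, set and group, and no test was made.

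For each member, the genes most like it over the 12 libraries were also listed. Fabp5 ran closest to Spp1 (osteopontin, r = 0.975), Gm2a (GM2 ganglioside activator, r = 0.971) and Ctsd (cathepsin D, r = 0.963), and Ffar4 to Wdfy1 (r = 0.963), Lamp1 (a lysosomal membrane protein, r = 0.960) and again Ctsd (r = 0.955). Plin2 ran closest to Ucp2 (a mitochondrial carrier, r = 0.969), Slc7a8 (an amino acid transporter, r = 0.927) and Klf11 (r = 0.923). The remaining members were closest to genes of other kinds, Fabp4 to Ep300 (r = 0.934), Apobec3 (r = 0.933) and Kif26a (r = 0.932), and Pparg to Sugp2 (r = 0.958), Vrk2 (r = 0.941) and Pnpt1 (r = 0.938), while Ccar2 (r = 0.944) and Arhgap12 (r = 0.939) were among the genes closest to Acsl1. Lpl was closest to Myo1f (r = 0.932), 1700025G04Rik (r = 0.904) and Cyfip1 (r = 0.894), Mgll to Asxl1 (r = 0.928), D17H6S56E-5 (r = 0.908) and Rbm26 (r = 0.897), and Cd36, with the weakest likeness, to Rsrc2 (r = 0.861), Snord70 (r = 0.826) and 1190002N15Rik (r = 0.817). Each r was picked as one of the highest over 14608 genes and is given with no p.

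The 250 bases before a start site were available from RefSeq (GRCm38.p6) for 6 of the 9 members, in 10 windows. Fabp4, Fabp5 and Lpl had no entry. The windows of Ffar4, which had no counts in Ct, and of Plin2, which split the ECH mice, are shown on the strand of the gene, 5′ to 3′. Capitals mark the nuclear receptor half-site AGGTCA on either strand.
Ffar4 chr19:38096829-38097078 (plus): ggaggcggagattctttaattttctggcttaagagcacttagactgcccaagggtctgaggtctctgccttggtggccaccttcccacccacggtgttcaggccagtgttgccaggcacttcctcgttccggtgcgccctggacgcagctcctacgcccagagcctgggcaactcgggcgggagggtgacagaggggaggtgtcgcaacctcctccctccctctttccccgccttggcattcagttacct
Plin2 chr4:86670060-86670309 (minus): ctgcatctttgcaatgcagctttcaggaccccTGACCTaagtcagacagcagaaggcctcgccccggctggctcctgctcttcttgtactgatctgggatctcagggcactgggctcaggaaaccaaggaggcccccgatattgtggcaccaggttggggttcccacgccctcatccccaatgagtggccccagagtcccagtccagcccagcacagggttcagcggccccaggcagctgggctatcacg
The half-site was present in at least 1 window of Plin2 (218 bases upstream of the start), Cd36 (228 bases) and Pparg (28 and 9 bases in its separate windows), and in 14.0% of the 32851 RefSeq windows searched. The 50 bases after the start lay whole in the gene's transcript compared here for Plin2. They did not for the Cd36 window or these Pparg windows (longest runs of 6, 6 and 9 bases). The Pparg window that did match held no half-site. The direct repeat AGGTCANAGGTCA, the form that PPAR and RXR bind, was in 0.0335% of windows and in none of the members' windows. The cAMP response element TGACGTCA (1.55% of windows), its half-site TGACG (17.8%, which includes every full element) and the C/EBP palindrome TTGCGCAA (0.164%) were searched on both strands too and were not in the members' windows. These matches describe letters in a window and say nothing of binding.

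Beyond the 9 members, 111 genes of fatty acid and neutral lipid handling were listed by role, and 96 passed the filter on low counts. One of these 96 was called higher in each isoproterenol group against Ct, Fabp7 in both cases, and none in HF against ECH. An unadjusted p under 0.05 was reached by 13 of 96 (13.5%; 10 higher and 3 lower) in ECH against Ct, where 11.9% of all genes reached it. The corresponding numbers were 24 (25.0%; 14 higher and 10 lower) against 16.1% in HF against Ct, and 15 (15.6%; 4 higher and 11 lower) against 7.98% in HF against ECH. The list had a median log2 fold change of 0.17, 0.01 and −0.12 in these 3 comparisons.

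Fabp7, a carrier best known from brain, had 0 counts in all 4 Ct libraries. It had 38, 46, 218 and 60 counts in ECH and 135, 24, 45 and 107 counts in HF. Every isoproterenol library thus held the transcript, at 0.222 to 1.96 CPM. The ECH mean was at least 23.6-fold and the HF mean at least 20.7-fold higher than the Ct limit, and the lowest libraries gave at least 10.8-fold and 6.35-fold. The FDR of the edgeR quasi-likelihood test was 0.0298 in ECH and 0.0319 in HF, and DESeq2 called it in both as well. Both calls were near the threshold, with an FDR of 0.0979 and 0.115 with the replicate number as a block, 0.1005 and 0.0893 after adjusting for the inferred set, and 0.777 for ECH 1 and 2 against Ct alone. Leaving out Ct 1 gave 0.0779 and 0.0938, Ct 4 0.0701 and 0.0711, ECH 4 0.0637 and 0.0508, HF 3 0.0536 and 0.0811, and HF 4 0.0581 and 0.0849. The ECH call was also lost without ECH 3 (0.0981), and the HF call without ECH 1 (0.0511), ECH 2 (0.0507), HF 1 (0.0641) or HF 2 (0.0561).

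Genes of fatty acid synthesis and desaturation included Elovl5, which lengthens polyunsaturated fatty acids, and Scd1, the stearoyl-CoA desaturase. Elovl5 had 71.2, 54.7, 88.8 and 63.8 CPM in Ct, 98.6, 99.9, 212 and 208 CPM in ECH, and 62.1, 81.1, 86.5 and 101 CPM in HF. All 4 ECH libraries were above all Ct libraries (log2 fold change 1.15 ± 0.27), which did not pass the test with edgeR (FDR 0.0914) and passed it with DESeq2 (FDR 0.00251). Most of this difference lay in ECH 3 and 4, and ECH 1 and 2 against Ct alone gave 0.50 ± 0.22 (edgeR FDR 0.947). Scd1 had 21.5, 53.4, 6.38 and 23.98 CPM in Ct, 12.3, 7.53, 4.78 and 13.5 CPM in ECH, and 2.58, 5.67, 6.60 and 5.38 CPM in HF. The HF level was −2.38 ± 0.55 on the log2 scale from Ct (edgeR FDR 0.0811, DESeq2 FDR 0.000474), and Ct 3 lay among the HF libraries. Of the 12 genes of this role, 3 were higher and 1 was lower at an unadjusted p under 0.05 in ECH against Ct, and 2 higher and 2 lower in HF against Ct, where 11.9% and 16.1% of all genes reached that p.

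Of the lipases, Pnpla2 encodes adipose triglyceride lipase, which opens the breakdown of stored triglyceride. Like Fabp4 and Mgll it was higher in ECH 3 and 4 than in ECH 1 and 2. It had 114, 125, 102 and 130 CPM in Ct, 139, 100.04, 431 and 482 CPM in ECH, and 101, 105, 79.4 and 78.8 CPM in HF. Unlike for Fabp4 and Mgll, ECH 1 lay above every Ct library and only ECH 2 below. ECH differed from Ct by 1.29 ± 0.40 on the log2 scale (edgeR FDR 0.202, DESeq2 FDR 0.0249). HF differed from Ct by −0.37 ± 0.39, and by −2.30 ± 0.26 with the set as a covariate (edgeR FDR 0.0021). HF differed from ECH by −1.66 ± 0.40 on the log2 scale without passing the test with edgeR (FDR 0.491), and passed it with DESeq2 (FDR 0.00637). Among set B libraries, HF differed from ECH 3 and 4 by −2.32 ± 0.15 for Pnpla2 (edgeR FDR 0.00193) and by −1.34 ± 0.18 for Elovl5 (edgeR FDR 0.00893), which passed. In that comparison 6 of 95 list genes and 370 of 14864 genes (2.49%) were called, among them Slc27a1 (a fatty acid transport protein) at −1.46 ± 0.14 and Gpihbp1 at −3.15 ± 0.67 lower in HF, and Gpr84 (a receptor for medium-chain fatty acids) at 1.55 ± 0.32 higher. It rests on 2 ECH libraries.

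**Figure D4:**
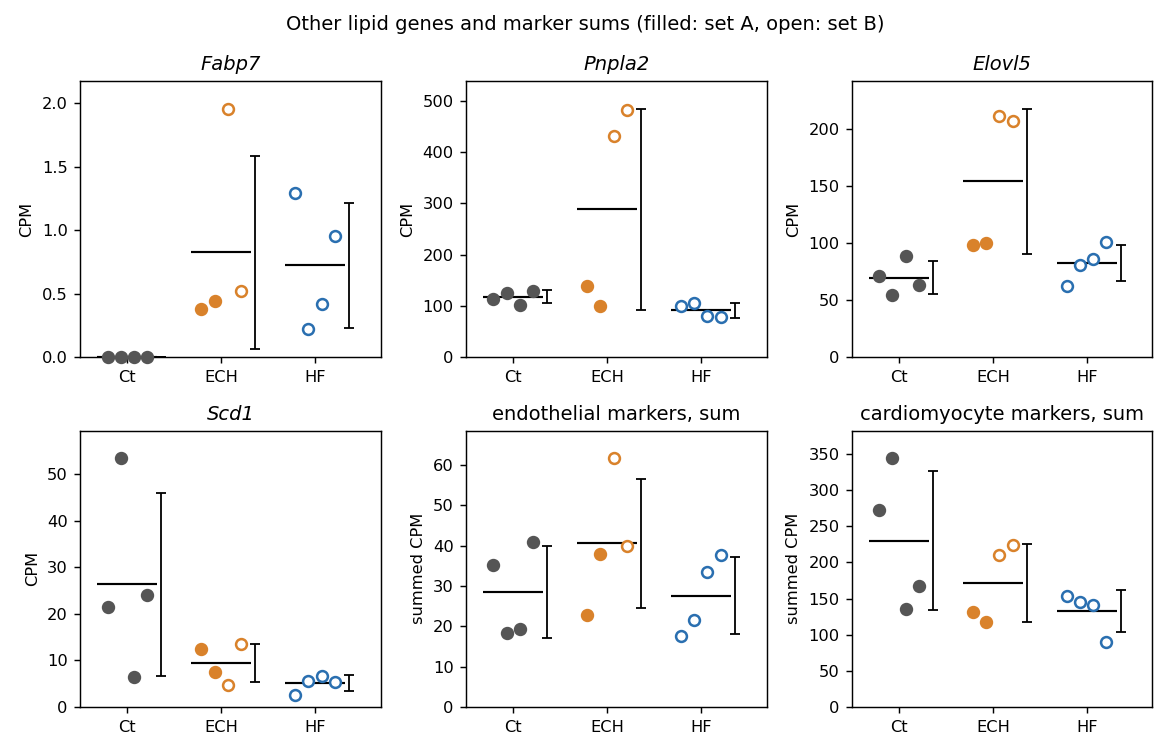
Levels of Fabp7, Pnpla2, Elovl5 and Scd1 (CPM) and the summed levels of endothelial and cardiomyocyte markers (summed CPM), with 1 point per library, filled for set A and open for set B, a line at the group mean and a bar of 1 SD. Pnpla2 and Elovl5 are high in ECH 3 and 4, and Fabp7 is at 0 in all Ct libraries.

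Apoc1, an apolipoprotein that hinders lipoprotein uptake, had 1.75, 5.28, 2.19 and 1.69 CPM in Ct, 1.79, 0.747, 2.83 and 1.59 CPM in ECH, and 0.498, 0.342, 0.475 and 0.572 CPM in HF. Every HF library was below every other library, at −2.53 ± 0.62 from Ct on the log2 scale, a difference that did not pass the test with edgeR (FDR 0.0984; DESeq2 FDR 0.000994). Plin3, another droplet coat protein, had 73.8 to 92.8 CPM in Ct and 103 to 114 CPM in ECH (log2 fold change 0.39 ± 0.11, edgeR FDR 0.175) and 103 to 119 CPM in HF (0.44 ± 0.11, edgeR FDR 0.113). Neither group overlapped with Ct, and neither difference passed the test. Rxrb, which encodes a partner receptor of PPARγ, was at −0.51 ± 0.15 on the log2 scale in HF against ECH (edgeR FDR 0.534).

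By role, with edgeR over all 12 libraries and no covariate, only the binding, transport and activation list, which holds Fabp7, had a call. DESeq2 also called Elovl5 and Pnpla2 in ECH against Ct, Scd1, Apoc1 and Plin5 in HF against Ct, and Pnpla2 in HF against ECH. Plin5 had 0 counts in every HF library and in Ct 2 (DESeq2 FDR 0.0278). With the set as a covariate, edgeR called Pnpla2 and Acaa2 in HF against Ct. It called Pnpla2, Elovl5 and Slc27a1 in HF against ECH. Of the 11 binding, transport and activation genes, 4 were higher and 1 was lower at an unadjusted p under 0.05 in HF against Ct, with a median log2 fold change of 0.39. Of 12 nuclear receptors and partners tested, 1 was higher and 5 were lower at an unadjusted p under 0.05 in HF against Ct, with a median log2 fold change of −0.37. Of all genes, 16.1% reached that p in this comparison. Of 18 genes of fatty acid oxidation, 3 were higher and none lower in both comparisons with Ct, with medians of 0.26 and 0.12. Of 11 genes of triglyceride synthesis none reached that p in either comparison with Ct. Of the other 5 fatty acid receptors, Ffar1, Ffar2 and Ffar3 were too low to be tested, and Gpr84 and Hcar2 did not reach that p in any of the 3 comparisons over all 12 libraries.

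**Figure D5:**
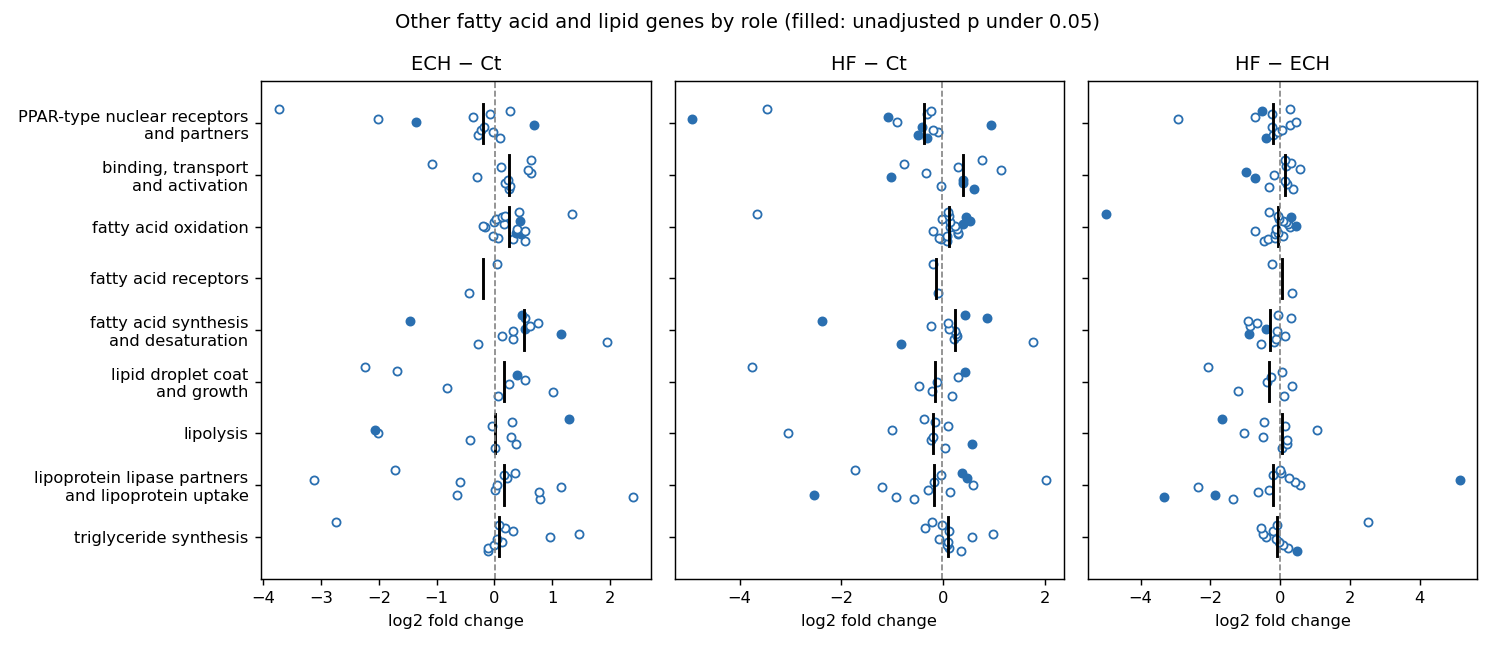
Log2 fold change of each listed gene by role in the 3 comparisons, filled where the unadjusted p was under 0.05, with a black bar at the median of each role and a dashed line at the median of all genes tested. Fabp7 against Ct and Plin5 against HF are not drawn because one group had 0 counts; the synthesis and desaturation list has the highest median of the 9 roles in ECH against Ct (0.51).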

How the data were processed

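RNA of sorted CD14+/CD64+ cardiac Mφ from 12 mice (4 Ct, 4 ECH and 4 HF, grouped by their labels) was amplified by the authors with the SMART-Seq v4 kit, sequenced from both ends in 75-base reads, trimmed, aligned to mm10 with TopHat2 and counted per gene with featureCounts. The files the authors deposited give raw, unnormalized counts for 24445 gene symbols. No source used here gives software versions, the annotation or strand setting of the counting, or the unit counted (read or fragment). Genes with exactly 2 counts outnumbered those with 1 or 3 in all 12 libraries, so counts may not be independent molecules, and a limit set at 3 counts for genes at 0 reflects counting error alone.

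The analysis used edgeR 4.0.16 in R 4.3.3. After the filterByExpr filter (14608 genes kept) and TMM scaling, a quasi-likelihood model was fitted to all 12 libraries with 1 mean per group and no covariate. Benjamini-Hochberg adjustment covered every gene tested, and calls required an FDR below 0.05 and a change of at least 2-fold, the thresholds of the study. With the GLM of edgeR the study reports genes selectively regulated in ECH against Ct and HF. No gene was called here in HF against ECH, and the reason for that difference was not tested. The common dispersion of 0.370, a biological coefficient of variation of 60.8%, limits what 4 against 4 mice can resolve. CPM are TMM-scaled, and likeness between genes was computed on log2 CPM with a prior count of 2. The code was tested on simulated data.

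The members and gene lists were chosen with earlier results of these data known, so members carry no p. Named list genes were those called, or, where fewer than 3 were called in a comparison, the 3 with the smallest p. Slc27a1, Gpihbp1 and Gpr84 are named from a comparison within a library set after their values were seen. Fabp3, Nr1h3, Pdk4 and Angptl4 are named outside these rules, and Plin5 and Acaa2 for DESeq2 or set-adjusted calls. Of the list, Gpat3 was matched through an older symbol, and Trbc2 of the T and NK cell markers was not analysed here. Results for some genes that these rules pick are not reported here.

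Alternatives were RLE scaling, DESeq2 1.42.0, no filter beyond 1 count, more than 1 CPM in 4 libraries as the filter, a block for the replicate number, a covariate for the inferred set, fits within each set, and each library left out. Leaving out Ct 2 and HF 1 together was chosen after the numbers of detected genes were seen, and the use of all annotated exons as gene length after the lengths were seen. Positions and transcripts came from GENCODE M21 (GRCm38, the same build as mm10), and promoters from RefSeq (GRCm38.p6). Figures were drawn with Python 3.11.15 and matplotlib 3.10.9.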

Additional observations from a re-analysis of the deposited data

Results flagged for a closer look

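In the control group, 2 members had a library that lay apart from the other 3, by the ratio of its gap to the range of the group on the log2 CPM scale (Dixon's ratio, at its 95% critical value). Plin2 in Ct 1 was the highest at 556 CPM, with a ratio of 0.842. Pparg in Ct 2 was the lowest at 8.11 CPM, with a ratio of 0.951. Chance alone puts about 1 in 20 groups past this value, and every group of each of the 9 members and of the named list genes was examined, save groups with 0 counts.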

How the results depend on the processing

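In ECH against Ct, where 52 genes and 1 list gene were called, DESeq2 called 248 and 3, the replicate block 22 and 0, the library set as a covariate 22 and 0, and libraries of the same set 1 and 0. In HF against Ct (55 and 1), DESeq2 called 336 and 4, the replicate block 18 and 0, and the covariate 208 and 2. In HF against ECH (0 and 0), DESeq2 called 47 and 1, the covariate 272 and 3, and the same set 370 and 6. The filter of more than 1 CPM removed Fabp7 and left 0 list genes in both comparisons with Ct, and leaving out Ct 2 and HF 1 together left 0 in ECH against Ct. Leaving out single libraries gave 11 to 95 genes in ECH against Ct (11 without Ct 1, 95 without Ct 3), 15 to 103 in HF against Ct (15 without Ct 1, 103 without Ct 3) and 0 to 0 in HF against ECH, 0 to 3, 0 to 3 and 0 to 0 list genes, and member medians of −0.0023 to 0.35, −0.22 to 0.23 and −0.03 to 0.16. Correlations of same-numbered libraries of different groups, −0.0701 to 0.0687, were over 0.1 in 0 of 12 pairs, so the replicate numbers were not taken as a pairing. The cause of these shifts was not tested.

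Fabp5 kept its sign in 20 of 20 alternatives in ECH against Ct (2.55 to 2.97 on the log2 scale) and in 19 of 19 in HF against Ct (2.73 to 3.05), and Plin2 in 20 of 20 (0.37 to 1.38) and 18 of 19 (−0.94 to 0.55). Fabp4 kept its sign in 17 of 20 and 19 of 19, Mgll in 14 of 20 and 19 of 19, and Cd36 in 20 of 20 and 17 of 19. The sign was kept least often by Pparg (12 of 20) and Acsl1 (13 of 20) in ECH against Ct and by Lpl (14 of 19) in HF against Ct, whose differences over all 12 libraries were within 1 SE of 0. With all annotated exons as length, the order of levels per kb turned for some members. Cd36 (189 CPM per kb) passed Plin2 (126) in HF, Fabp5 (4.45) came after Pparg (6.83) and Acsl1 (6.02) in Ct, and Fabp4 (5.07) after Pparg (8.94) and Acsl1 (5.72) in HF. Fabp4 still exceeded Fabp5 in Ct (8.85 against 4.45) and Fabp5 exceeded Fabp4 in HF (34.7 against 5.07).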

Other observations

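Pdk4 and Angptl4, genes that fatty acids induce through PPARs in many tissues, were singled out of the list after their values were seen. Pdk4, which turns fuel use from glucose to fat, had 426, 509, 2 and 43 counts in Ct, 38, 130, 1450 and 1423 counts in ECH, and 2, 4, 0 and 87 counts in HF. Angptl4, a secreted inhibitor of lipoprotein lipase, had 488, 81, 107 and 25 counts in Ct, 61, 99, 1648 and 2461 counts in ECH, and 0, 123, 106 and 183 counts in HF. The mean CPM of ECH 3 and 4 was 15.5 times that of ECH 1 and 2 for Pdk4 and 23.1 times for Angptl4, and 3.82 times for Pnpla2. Fabp3, the heart-type carrier that cardiomyocytes also make, had 15.5 ± 4.51 CPM in Ct, 12.6 ± 5.07 in ECH and 7.58 ± 2.38 in HF (SD, n = 4), a log2 difference of −1.03 ± 0.33 between HF and Ct that did not pass the edgeR quasi-likelihood test (FDR 0.177). The summed cardiomyocyte markers, of which Fabp3 is one, were 135 to 344 CPM in Ct and 89.6 to 154 CPM in HF, with 6 of the 12 at an unadjusted p under 0.05 (0 called by edgeR, 2 by DESeq2), and their part in Fabp3 was not tested. Nr1h3, the oxysterol receptor LXRα, had 7.03 ± 2.91 CPM in Ct, 11.2 ± 0.434 in ECH and 13.5 ± 2.66 in HF, and its log2 differences from Ct of 0.68 (FDR 0.357) and 0.95 (FDR 0.145) did not pass.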
